A study of Mus musculus with 77 samples.

Results

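Nuclear receptors are transcription factors, most of which are switched by small lipid-soluble ligands such as steroid and thyroid hormones, retinoids, vitamin D, bile acids and fatty acids. They bind DNA as monomers, homodimers or heterodimers with a retinoid X receptor, and recruit corepressors or coactivators to their target genes. In liver they control bile acid, lipid and drug metabolism, in kidney mineral and salt handling, in fat and muscle fuel use and mitochondrial content. The 33 members described here were taken by symbol, each through its Ensembl ID, and each had 1 row in every deposited count file, out of 55273 features in the mRNA and small RNA files and 55421 in the total RNA files. The family in mouse is larger: 16 further receptors, among them Pparg, Nr1h4 and Nr1d1, were kept as a comparison list.

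The series measured RNA of liver, kidney, VsWAT, GAS and plasma in 77 libraries, which the labels put in 28 groups of 2 or 3. Its title names iTag labelling. Liver mRNA, kidney mRNA and the small RNA of liver, VsWAT, GAS and plasma were sequenced as pull-down and as input, while total RNA of VsWAT and GAS was sequenced as input. All mice were male and 12 weeks old and had eaten a diet high in fat (HFD) or its control low in fat (LFD) for 2 weeks. Every group, the controls included, shares the same alleles: the strain FVB.129P2-Cyp3a13tm1Ahs, the deletion Del(5Cyp3a57-Cyp3a59)1Ahs and the transgene Tg(APOE-CYP3A4)A1Ahs. Mouse Cyp3a genes are thus deleted, and human CYP3A4 is carried under APOE regulatory sequence, which is used to direct expression to the liver. The labels name neither the labelling compound nor the cells in which labelling took place, and no group lacks the transgene. Nr1i2 and Nr1i3, the regulators of Cyp3a and Cyp2b genes, are therefore described in mice with an altered Cyp3a locus. Liver mRNA had 3 libraries per group, kidney mRNA 3 on HFD and 2 on LFD, liver small RNA 3 per group except 2 in the LFD pull-down, VsWAT and GAS small RNA and total RNA 3 per group, and plasma 2 per group, for HFD and LFD alike. The labels do not say that replicates are separate animals, so p-values measure the spread between these libraries, which may be technical.

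Counts assigned to genes ranged from 3033702 to 4942158 per library in liver mRNA, from 3741335 to 19645443 in kidney mRNA, from 573697 to 3608065 in liver small RNA. They ranged from 849006 to 2580104 in VsWAT and GAS small RNA, from 3218698 to 9749492 in total RNA and from 221875 to 828030 in plasma. The summed counts of the 33 members were 0.316% to 0.364% of a liver mRNA pull-down library and 0.124% to 0.213% of an input library, and at most 0.253% in any small RNA library. The tissue labels were checked on 10 markers each: in the input libraries all 10 hepatocyte markers were higher in liver and all 10 tubule markers higher in kidney, and in total RNA all 10 adipocyte markers were higher in VsWAT and all 10 skeletal muscle markers higher in GAS. Several libraries stood apart. The kidney inputs HFD 1 and LFD 1 had over 15% of counts in mitochondrial mRNA, and 3 VsWAT and 1 GAS total RNA libraries had over 3% in the ribosomal locus Gm42418. In VsWAT small RNA, HFD 1, HFD 2 and LFD 1 held over 300 CPM of the liver gene Alb in both fractions. The liver mRNA input LFD 1 held 158 CPM of the kidney gene Kap, against 7.87 to 41.2 CPM in the other liver inputs. The liver mRNA inputs HFD 1 and HFD 3, and LFD 2 and LFD 3, differed little beyond counting noise (chi-square per degree of freedom 1.17 and 1.12 over expressed genes). The VsWAT small RNA inputs HFD 1 and HFD 2 were also close (1.44). All were kept as separate libraries, so an n that counts them may be too large. Levels below are CPM after TMM scaling within each comparison, so that a library has slightly different values in different comparisons. No gene lengths were used, and levels are not compared between genes. A receptor rose or fell where edgeR's quasi-likelihood test gave a Benjamini-Hochberg adjusted p under 0.05 over all genes tested.

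Nr5a2, Nr1i2 and Nr1i3 were far higher in liver than in kidney, and Vdr, Esrrb and Esrrg far lower. Of 32 members tested between liver mRNA input (n = 6) and kidney mRNA input (n = 5), 13 were higher and 7 lower in liver, where 57% of all genes tested were called (26.1% higher, 30.9% lower). Under total-count scaling 11 were higher and 10 lower. The members' median log2 fold change was 0.22 and that of all genes -0.04. In whole tissue, fewer cells of a type and less RNA per cell cannot be told apart. Nr5a2, a receptor that drives bile acid and cholesterol genes in liver, had 43.4, 62.3 and 70.5 CPM (lowest, median, highest) in liver, against 0.138, 0.0632 and 0.0441 CPM on HFD and 0.22 and 0.0543 CPM on LFD in kidney, a log2 fold change of 9.22 ± 0.32 (SE; adjusted p = 9.07e-11). The kidney values rest on 7 counts in all 5 libraries. Nr1i2, the pregnane X receptor that senses drugs and other foreign compounds, had 51.1, 79.6 and 144 CPM in liver, against 0.207, 0.758 and 0.882 CPM on HFD and 0.33 and 0.326 CPM on LFD in kidney (7.24 ± 0.43). Nr1i3, the constitutive androstane receptor with an overlapping set of targets, spread more widely in liver, with 3.9, 12.9 and 28.2 CPM, but even its lowest liver value lay above the kidney values of 0 to 0.326 CPM (6.84 ± 0.66).

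Hnf4a, which maintains both hepatocyte and proximal tubule identity, did not separate the tissues: it had 414, 488 and 697 CPM in liver, against 410, 437 and 419 CPM on HFD and 265 and 516 CPM on LFD in kidney (0.36 ± 0.20, adjusted p = 0.149). Its close relative Hnf4g went the other way, with 0 to 0.677 CPM in liver, against 5.03, 2.28 and 2.65 CPM on HFD and 5.5 and 5.27 CPM on LFD in kidney (-4.06 ± 0.56). Rxra, the heterodimer partner of many of these receptors, rose in liver to 261, 342 and 447 CPM, against 54.9, 94 and 84.6 CPM on HFD and 43.7 and 59.5 CPM on LFD in kidney (2.45 ± 0.24). Ppara, the fatty acid-sensing activator of oxidation and ketone synthesis, averaged 103 ± 29.2 CPM in liver and 31.7 ± 10.7 CPM in kidney (SD; 1.69 ± 0.22), without overlap. Esr1, the estrogen receptor, averaged 81.5 ± 14.1 CPM in liver and 30.7 ± 8.15 CPM in kidney (1.41 ± 0.20). The orphan receptors Nr6a1 (1.59 ± 0.24), Nr2f6 (1.34 ± 0.29) and Nr2c1 (1.00 ± 0.18) were higher in liver as well, each with groups that did not overlap.

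Vdr, the vitamin D receptor, had 0 counts in 4 of 6 liver libraries and 6 counts over all 6. It had 0 to 1.02 CPM in liver, against 180, 218 and 194 CPM on HFD and 162 and 192 CPM on LFD in kidney, a log2 fold change of liver over kidney of -9.25 ± 0.48. Esrrb and Esrrg, orphan receptors that share a response element and act on mitochondrial and transport genes, were both lower in liver. Esrrb had 0, 0.938 and 1.73 CPM in liver, against 16.1, 22 and 20.1 CPM on HFD and 15.4 and 18.5 CPM on LFD in kidney (-4.38 ± 0.39). Esrrg had 3.29, 6.03 and 8.24 CPM in liver, against 74.5, 50 and 48.9 CPM on HFD and 95.5 and 63.3 CPM on LFD in kidney (-3.62 ± 0.21). In no case did a liver library reach the lowest kidney library. Esrra, the third member of that subfamily, fell in liver with overlapping groups (-1.38 ± 0.41), a call lost with the near-identical liver libraries summed.

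Several other receptors differed between the tissues. Of the thyroid hormone receptors, Thrb, the main liver form, averaged 92.8 ± 10.1 CPM in liver and 52.1 ± 9 CPM in kidney (0.84 ± 0.15), while Thra averaged 7.58 ± 3.91 CPM in liver and 22.5 ± 5.85 CPM in kidney (-1.69 ± 0.33). Thra overlaps Nr1d1 at its end on the opposite strand, and as the strand setting of the counting is not given in the sources used here, reads of that stretch cannot be told apart. Nr2f2, a COUP transcription factor of vessels and stroma, averaged 29.2 ± 4.98 CPM in liver and 93.5 ± 15.3 CPM in kidney (-1.67 ± 0.17). Of the corticosteroid receptors, Nr3c2, the mineralocorticoid receptor, averaged 18 ± 5.11 CPM in liver and 10 ± 2.17 CPM in kidney (0.78 ± 0.19), a call lost under total-count scaling. Nr3c1, the glucocorticoid receptor, averaged 156 ± 12 CPM in liver and 117 ± 26.8 CPM in kidney (0.42 ± 0.16, adjusted p = 0.0452), a call that turned to -0.02 under total-count scaling and held without liver LFD 3 or kidney LFD 1 but without no other of the 11 libraries. Rora and Nr1h2 had log2 fold changes of 0.26 ± 0.21 and -0.05 ± 0.52 and did not pass the test.

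Target genes known from textbooks were set beside their receptors. Of all genes tested, 26.1% were higher and 30.9% lower in liver, and receptor activity was not tested. Of 5 tested vitamin D receptor targets all 5 were lower in liver, with a median log2 fold change of -9.82, among them the calcium-binding Calb1 (0.235 CPM in liver and 189 CPM in kidney) and S100g (0.622 CPM in liver and 555 CPM in kidney). Of 12 tested targets of Nr1i2 and Nr1i3, 11 were higher and 0 lower in liver (median 2.59), for example Alas1, the first enzyme of haem synthesis, with 1585 CPM in liver and 177 CPM in kidney. Of 10 tested targets of the estrogen-related receptors, 0 were higher and 7 lower in liver (median -0.85), such as Idh3a of the citric acid cycle with 71.2 CPM in liver and 188 CPM in kidney.

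**Figure D1:**
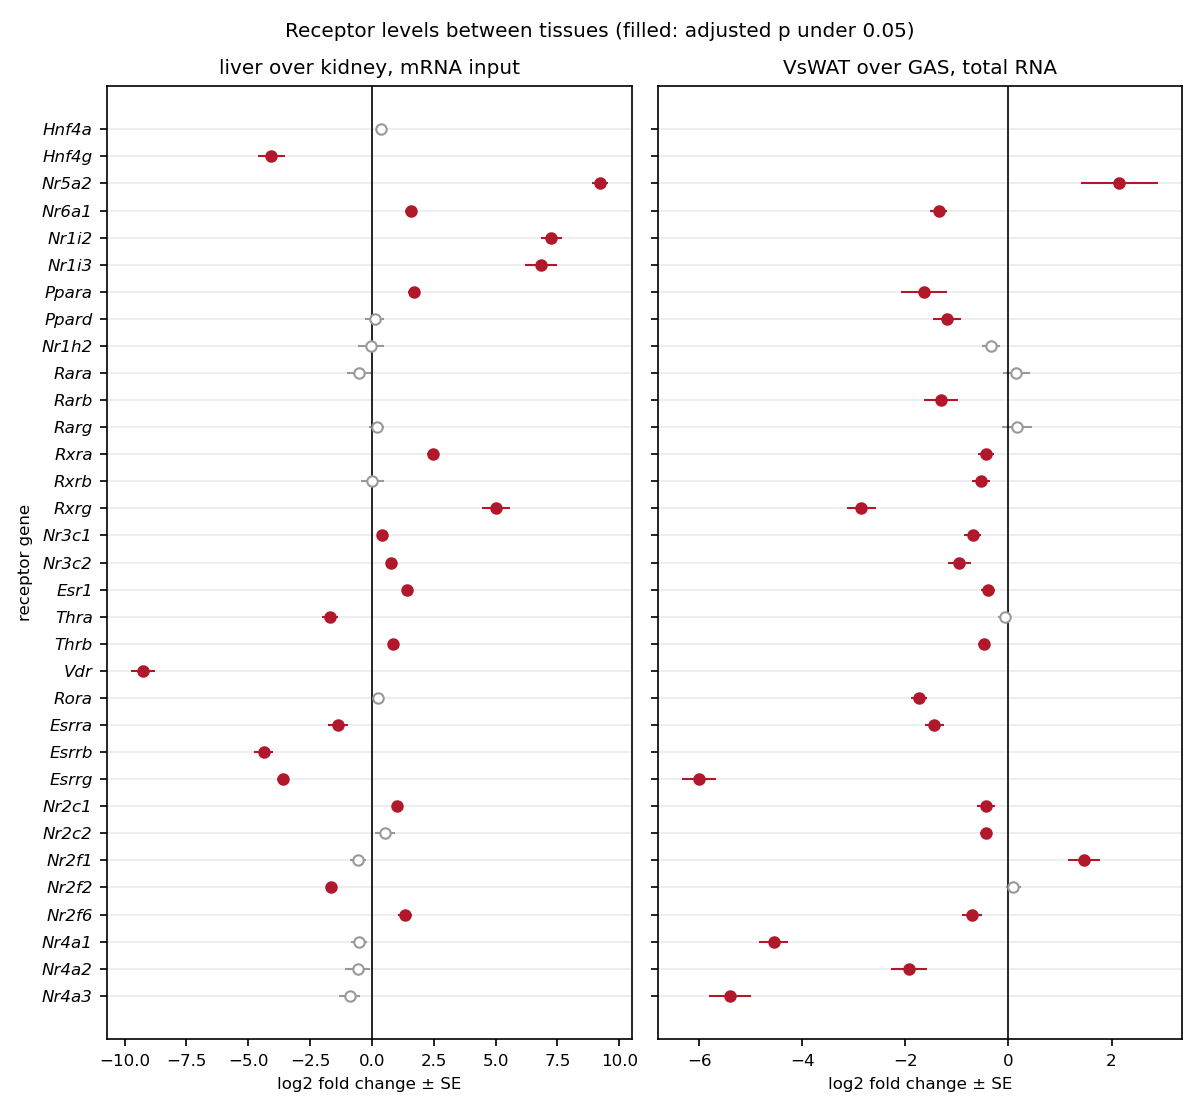
Log2 fold change with its SE (x axes) of each receptor tested (rows), liver over kidney in mRNA input (left) and VsWAT over GAS in total RNA (right); filled points passed the test. Nr5a2, Nr1i2 and Nr1i3 lie far to the right in liver and Vdr far to the left; in VsWAT against GAS most receptors lie left of 0 (7 of 28 turned positive under total-count scaling), with Esrrg, Nr4a3 and Nr4a1 farthest, and Esrrb is not drawn because it had 0 counts in VsWAT.

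Between VsWAT and GAS most receptors were lower in VsWAT, though 7 of the 28 values, those between -0.53 and -0.07, turned positive under total-count scaling. In total RNA (n = 6 each), 28 members were tested, of which 2 were higher and 21 lower in VsWAT, where 63.9% of all genes were called (28.3% higher, 35.6% lower). Under total-count scaling 5 were higher and 12 lower. The members' median log2 fold change was -0.70, against -0.07 for all genes.

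Nr4a1, Nr4a3 and the estrogen-related receptors Esrrg and Esrrb were among the members that differed most. Nr4a1, an orphan receptor induced within minutes by nerve and hormone signals, had 1.95, 2.23 and 6.16 CPM in VsWAT, against 44.5, 60.5 and 91.1 CPM in GAS (-4.56 ± 0.28, adjusted p = 6.19e-09). Nr4a3, its relative, had 0.971, 1.8 and 3.93 CPM in VsWAT, against 40.1, 81.4 and 147 CPM in GAS (-5.40 ± 0.41). Nr4a2, with a mean of 11 counts a library, fell in the same direction (-1.92 ± 0.35). In none of the 3 genes did the tissues overlap. Esrrg had 0.122, 0.563 and 1.32 CPM in VsWAT, against 27.5, 41 and 52.7 CPM in GAS (-6.01 ± 0.33). Esrra had 7.87, 8.98 and 10.9 CPM in VsWAT, against 14.9, 27.9 and 31.3 CPM in GAS (-1.44 ± 0.18). Esrrb had 0 counts in 6 VsWAT libraries, against 110 counts in 6 GAS libraries, at least 43.7-fold lower in VsWAT when VsWAT is set to a floor of 3 counts over the group. All 12 tested targets of the estrogen-related receptors were lower in VsWAT (median -2.14), where 35.6% of all genes were lower. Ckmt2, the muscle creatine kinase gene, had 0.087 CPM in VsWAT and 589.5 CPM in GAS. Ndufs1 of complex I had 68.3 CPM in VsWAT and 303 CPM in GAS. The coactivator Ppargc1a, which partners these receptors, had 3.37 CPM in VsWAT and 150.4 CPM in GAS (-5.42 ± 0.26).

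Rora, an orphan receptor of the clock and of lipid metabolism, had 79.1, 85.1 and 109 CPM in VsWAT, against 198, 289 and 400 CPM in GAS (-1.74 ± 0.16). Rxrg, the muscle-rich retinoid X receptor, had 1.26, 1.76 and 3.36 CPM in VsWAT, against 11.2, 16.7 and 21.2 CPM in GAS (-2.86 ± 0.28). Nr6a1 (-1.35 ± 0.17), Nr3c2 (-0.96 ± 0.23), Thrb (-0.47 ± 0.12) and Nr2c2 (-0.44 ± 0.10) were lower in VsWAT without overlap, but under total-count scaling Nr3c2 did not pass and Thrb and Nr2c2 turned to 0.12 and 0.17. The calls of Thrb and Nr2c2 were also lost without the libraries that stood apart. Higher in VsWAT were Nr2f1, a COUP transcription factor (4.12 ± 1.15 CPM in VsWAT and 1.5 ± 0.628 CPM in GAS, 1.47 ± 0.31), and Nr5a2 (1.87 ± 1.3 CPM in VsWAT and 0.457 ± 0.538 CPM in GAS, with overlap; lost without VsWAT LFD 1). The liver gene Alb was at 11.8 to 253 CPM in these VsWAT libraries and at 0.127 to 2.04 CPM in GAS; its part in the Nr5a2 value was not tested. Among receptors outside the 33, Pparg, the adipocyte receptor, had 85.8 CPM in VsWAT and 7.76 CPM in GAS.

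Small RNA inputs held far fewer receptor counts. Their split into higher and lower moved with the scaling for VsWAT against GAS and for liver against VsWAT. Against GAS (n = 6 each), 15 members were tested in VsWAT and 5 were lower and 0 higher, where 42.6% of genes were called (22.1% higher, 20.5% lower). Under total-count scaling the balance turned, with 8 higher and 2 lower. Without GAS HFD 2 the count was 9. Nr4a1 had 2.39, 3.46 and 9.94 CPM in VsWAT, against 28.2, 38.9 and 51.4 CPM in GAS (-3.12 ± 0.24). The log2 fold change of Nr4a3 was -3.39 ± 0.39, and that of Rora, a call lost under total-count scaling, was -1.04 ± 0.17. Liver against VsWAT gave 9 higher and 2 lower of 18 (64.3% of genes called, 31.3% higher and 33% lower), but 6 higher and 9 lower under total-count scaling. Hnf4a had 117, 263 and 341 CPM in liver, against 0.577, 4.16 and 10.3 CPM in VsWAT (5.67 ± 0.41). Ppara had 19.5, 51.8 and 67.1 CPM in liver, against 0.774, 3.32 and 9.29 CPM in VsWAT (3.65 ± 0.32). Liver against GAS gave 8 higher and 6 lower of 18 (63.8% of genes called, 31.4% higher and 32.4% lower). Of these calls, total-count scaling lost that of Nr2c2 alone. There Hnf4a had 1811 counts in liver and 2 in GAS, a ratio of CPM of 701 (95% counting interval 194 to 5789). Nr5a2 had 383 counts in liver and 2 in GAS, a ratio of 148 (40.7 to 1228). Rxra rose in liver against both, by 2.15 ± 0.23 over VsWAT and 2.07 ± 0.23 over GAS.

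Hnf4a and Nr5a2 in VsWAT moved from library to library together with Alb. In the VsWAT small RNA pull-down, Hnf4a had 24.6, 35.6 and 0.719 CPM on HFD and 19.1, 1.85 and 4.44 CPM on LFD, and Nr5a2 had 11.4, 9.94 and 0 CPM on HFD and 5.8, 0 and 1.85 CPM on LFD. In the same libraries Alb was at 905, 1097 and 36.8 CPM on HFD and at 658 and 94 CPM in LFD 1 and LFD 2, with LFD 3 close to LFD 2 (CPM of assigned counts, unscaled). The 3 libraries with the most Alb were thus the 3 with the most Hnf4a and Nr5a2; the source of the Alb counts was not tested.

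In each of the 5 tissue sets more members were called higher than lower in the pull-down, although in VsWAT the share called higher was close to that of all genes. Of the 33 members, 23 were higher in the pull-down of at least 1 of the 5 tissue sets, 10 were lower in at least 1, 5 did both, and 5 were called in none. Rora, Thrb, Nr6a1 and Nr3c1 were higher in all 5 sets, Esrrg in 4, Ppara and Nr2c1 in 3. The matching counts over sets were not made for all genes, so these counts are not read as a trait of the family. The Esrrg call in liver small RNA (0.93, adjusted p = 0.0463) was lost without any of 6 of 11 libraries (inputs HFD 1, LFD 1 and LFD 2, pull-downs HFD 1, LFD 1 and LFD 3), with DESeq2 and with the replicate block. That of Ppara in GAS (1.00) was lost without input HFD 1 or input LFD 3. Nr1h2, the liver X receptor beta, was lower in 4 sets and higher in none. Under total-count scaling all 4 of these calls were lost, with values of -0.27 in liver mRNA, 0.21 in liver small RNA, -0.32 in VsWAT and -0.29 in GAS. In liver mRNA (n = 6 each) 16 of 25 members tested were higher and 3 lower, where 71.6% of all genes were called (36.3% higher and 35.3% lower). The members' median log2 fold change was 0.80, against 0.01 for all genes. In kidney mRNA (n = 5 each) 12 of 29 were higher and 5 lower, where 53.2% of genes were called (26.9% and 26.3%; median 0.42, against 0.01). In GAS small RNA (n = 6 each) 13 of 25 were higher and 4 lower, where 54.4% were called (27.9% and 26.5%; median 0.74, against 0.06). In liver small RNA (5 pull-down and 6 input libraries) 8 of 20 were higher and 1 lower, where 55.5% were called (27.1% and 28.4%; median 0.49, against 0.10). In VsWAT small RNA (n = 6 each) 6 of 25 were higher and 3 lower, where 44.5% were called (21.3% and 23.2%; median 0.19, against 0.01). Scaled by total counts, all genes had medians of 0.26 in liver mRNA, 0.24 in kidney, 1.23 in liver small RNA, 0.64 in VsWAT and 0.96 in GAS. The members called higher and lower were then 16 and 0 in liver mRNA, 17 and 3 in kidney, 17 and 1 in GAS, 17 and 0 in liver small RNA, and 11 and 0 in VsWAT.

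In the marker lists given here, markers of other cells moved with the fraction. Not every list is given for every set, and liver small RNA is left out. Of all genes, 35.3% were called lower in the pull-down in liver mRNA, 26.3% in kidney mRNA, 23.2% in VsWAT and 26.5% in GAS. The shares called higher were 36.3%, 26.9%, 21.3% and 27.9%. In liver mRNA all 9 endothelial, all 8 leukocyte and all 8 fibroblast markers tested were lower in the pull-down (medians -2.08, -1.92 and -2.06), and 7 of 10 hepatocyte markers were lower and 2 higher. In kidney mRNA all 10 fibroblast markers and 8 of 10 tubule markers were lower and 0 higher. In VsWAT all 10 endothelial and all 10 fibroblast markers were lower, while 7 of 10 adipocyte markers were higher and 3 lower. In GAS all 10 fibroblast markers were lower, with 1 of 10 muscle markers higher and 5 lower. Mitochondrial mRNA was 24.4% to 31.8% of counts in the GAS pull-down and 2.00% to 3.13% in GAS input. The part of these differences in the receptor values was not tested.

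**Figure D2:**
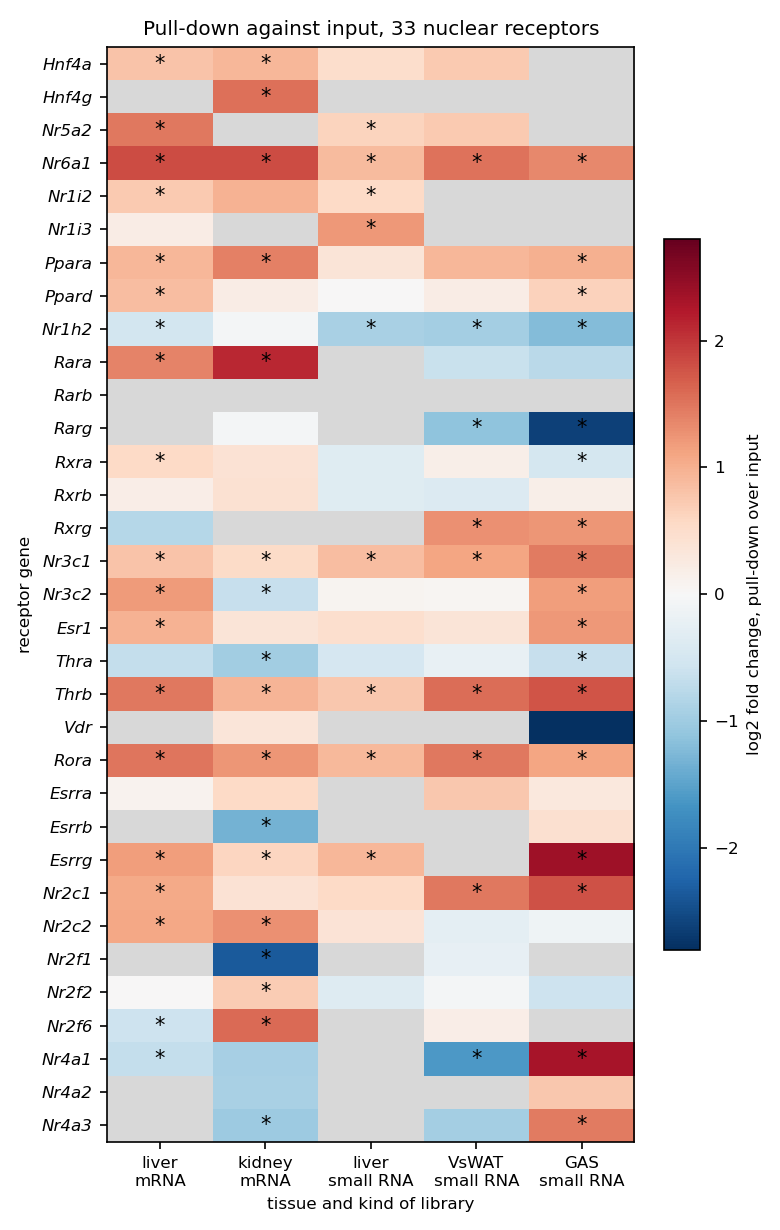
Log2 fold change of pull-down over input (colour) for the 33 receptors (rows) in the 5 tissue sets (columns); a star marks an adjusted p under 0.05 and grey a gene not tested for low counts. Nr6a1, Nr3c1, Thrb and Rora are red with a star in every column, Nr1h2 is blue with a star in 4 (under total-count scaling all 4 calls were lost, and liver small RNA turned to 0.21), and Nr4a1 is blue in liver and VsWAT and dark red in GAS.

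The 4 receptors higher in all sets kept apart from their inputs to different degrees. Rora had 254, 287 and 324 CPM in the liver mRNA pull-down, against 90.7, 103 and 115 CPM in input (1.49 ± 0.10, adjusted p = 9.64e-09). In kidney it had 257, 327 and 268 CPM on HFD and 212 and 279 CPM on LFD in the pull-down, against 133, 72.8 and 81.2 CPM on HFD and 169 and 122 CPM on LFD in input (1.25 ± 0.22). No kidney input reached a pull-down library, and the highest input was LFD 1, which stood apart. Its log2 fold change was 0.90 ± 0.18 in liver small RNA, 1.47 ± 0.13 in VsWAT and 1.11 ± 0.17 in GAS, again with no overlap. Thrb had 208, 252 and 267 CPM in the liver mRNA pull-down, against 78.1, 88.1 and 100.4 CPM in input (1.48 ± 0.09, adjusted p = 6.50e-09). It also separated pull-down from input in kidney (0.95 ± 0.16), VsWAT (1.56 ± 0.20) and GAS (1.75 ± 0.20), while in liver small RNA the groups overlapped (0.76 ± 0.22).

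Nr6a1, the germ cell nuclear factor that silences pluripotency genes in the early embryo, had the highest fold change of the members in liver mRNA. It had 47.5, 60.8 and 69.1 CPM in the pull-down, against 10.1, 16.2 and 25.1 CPM in input (1.82 ± 0.18). In kidney it had 30.2, 27.1 and 26.1 CPM on HFD and 21.7 and 24.9 CPM on LFD in the pull-down, against 7.89, 5.73 and 5.61 CPM on HFD and 7.79 and 9.87 CPM on LFD in input (1.83 ± 0.20). In both tissues every pull-down library lay above every input library. In the small RNA sets its counts were lower and the groups overlapped in liver and VsWAT (0.88 ± 0.23 and 1.51 ± 0.47; the VsWAT call was lost without the libraries that stood apart), but not in GAS (1.34 ± 0.34). Nr3c1 had 248, 256 and 275 CPM in the liver mRNA pull-down, against 135, 145 and 165 CPM in input (0.79 ± 0.09). In GAS it had 122, 205 and 296 CPM in the pull-down, against 52.9, 74.8 and 106 CPM in input (1.46 ± 0.20). Its log2 fold changes were 0.87 ± 0.18 in liver small RNA and 1.10 ± 0.21 in VsWAT. In kidney, at 0.54 ± 0.17, the groups overlapped and the call was lost without the LFD 2 library of either fraction.

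**Figure D3:**
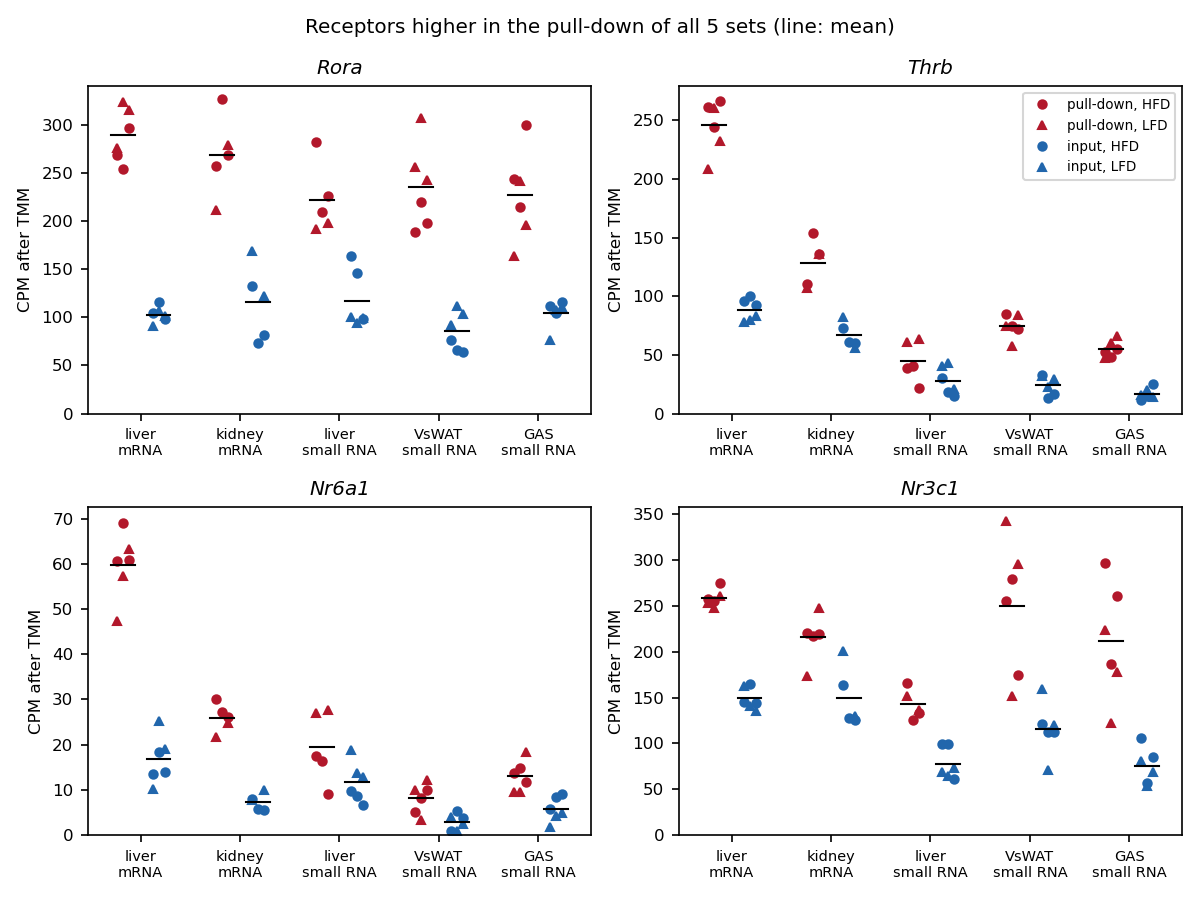
CPM after TMM (y axes, from 0) of Rora, Thrb, Nr6a1 and Nr3c1 in each library of the 5 sets, pull-down (red) left of input (blue), HFD as circles and LFD as triangles, with a line at the mean. Red points lie above blue ones without overlap for Rora in all sets and for Thrb in all but liver small RNA, whereas Nr3c1 overlaps in kidney and VsWAT.

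In the liver mRNA pull-down Nr5a2, Hnf4a and Ppara were among the members that rose without overlap. Nr5a2 had 148, 159 and 185 CPM in the pull-down, against 42, 59.1 and 67.1 CPM in input (1.49 ± 0.12). Hnf4a had 810, 868 and 972 CPM in the pull-down, against 393, 467 and 663 CPM in input (0.80 ± 0.12). Ppara had 161, 196 and 204 CPM in the pull-down, against 62.6, 89.5 and 132 CPM in input (0.93 ± 0.16). Esr1 (0.98 ± 0.13), Rxra (0.55 ± 0.12), Nr2c1 (1.05 ± 0.14) and Nr2c2 (1.08 ± 0.28) rose without overlap as well. Nr3c2 (1.20 ± 0.15), Rara (1.40 ± 0.29), Esrrg (1.18 ± 0.18), Ppard (0.87 ± 0.21) and Nr1i2 (0.74 ± 0.16) rose with overlap. Nr1i3 averaged 16.7 CPM in the pull-down and 14.2 CPM in input and did not pass (0.21, adjusted p = 0.643). The 3 members that fell were Nr1h2 (22 ± 4.39 CPM in the pull-down and 32.5 ± 9.74 CPM in input, -0.52 ± 0.16), Nr2f6 (-0.59 ± 0.17) and Nr4a1 (-0.66 ± 0.28). Under total-count scaling none of the 3 passed. The call of Nr4a1 held without input LFD 1, input LFD 3 or pull-down LFD 1, but without no other of the 12 libraries. In liver small RNA, Nr1i2 had 28.8, 23.2 and 23.1 CPM on HFD and 20.6 and 23.7 CPM on LFD in the pull-down, against 13.3, 16.6 and 17.6 CPM in input (0.56 ± 0.20), a call lost without input HFD 3 or pull-down HFD 1.

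In kidney mRNA the retinoic acid receptor Rara rose most among the members. It had 31.4, 28.4 and 31 CPM on HFD and 27.4 and 29.4 CPM on LFD in the pull-down, against 4.82, 8.75 and 8.11 CPM on HFD and 2.92 and 9.31 CPM on LFD in input (2.10 ± 0.27, adjusted p = 9.95e-05). Hnf4a averaged 999 ± 84.4 CPM in the pull-down and 524 ± 118 CPM in input (0.93 ± 0.18). Hnf4g averaged 15.1 ± 1.7 CPM in the pull-down and 5.29 ± 1.95 CPM in input (1.54 ± 0.27), and Ppara averaged 104 ± 16.5 CPM in the pull-down and 40.5 ± 13.6 CPM in input (1.40 ± 0.20). None of these groups overlapped. Nr2c2 rose likewise (1.27 ± 0.25). Esrrb had 11.2, 7.54 and 6.96 CPM on HFD and 13.2 and 8.59 CPM on LFD in the pull-down, against 20.5, 28.5 and 25.8 CPM on HFD and 19.5 and 23.7 CPM on LFD in input (-1.32 ± 0.22), so that it fell without overlap. Thra (-0.97 ± 0.25) and the scarce Nr2f1 (0.564 ± 0.505 CPM in the pull-down and 2.85 ± 0.978 CPM in input, -2.34 ± 0.56) fell likewise. Vdr, abundant in kidney, averaged 304 CPM in the pull-down and 242 CPM in input and did not pass (0.33, adjusted p = 0.0633). The calls of Nr3c2 (-0.64 ± 0.23), Esrrg (0.60 ± 0.21) and Nr4a3 (-1.03 ± 0.33) were each lost when any 1 of several libraries was left out. Those of Nr3c2 and Nr4a3 were also lost under total-count scaling and without the libraries that stood apart, and that of Esrrg with the replicate block. That of Nr3c2 was lost without input HFD 1, input LFD 1, pull-down HFD 3 or pull-down LFD 2, that of Esrrg without HFD 2 or HFD 3 of either fraction or input LFD 2, and that of Nr4a3 without input LFD 1 or pull-down HFD 3.

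In VsWAT small RNA, Nr2c1, a testicular orphan receptor, had 15.7, 20.7 and 25.5 CPM in the pull-down, against 3.83, 7.84 and 9.27 CPM in input (1.48 ± 0.25). Nr1h2 had 8.28, 16 and 17.6 CPM in the pull-down, against 25.1, 26.8 and 32 CPM in input (-0.95 ± 0.22), without overlap; the call was lost under total-count scaling and without the libraries that stood apart. Among receptors outside the 33, Pparg was at 345 CPM in the pull-down and 75.4 CPM in input (2.19 ± 0.21). In GAS small RNA, Esrrg had 27.7, 41.3 and 58.8 CPM in the pull-down, against 4.94, 7.72 and 12.6 CPM in input (2.37 ± 0.24, adjusted p = 4.36e-08). Esr1 had 32.4, 44.7 and 62.5 CPM in the pull-down, against 14.3, 19.1 and 24.3 CPM in input (1.21 ± 0.20). Both stood clear of their inputs. Of the 12 tested targets of the estrogen-related receptors in GAS, 7 were higher and 1 lower in the pull-down. Of all genes, 27.9% were higher and 26.5% lower there. Ppargc1a was at 229 CPM in the GAS pull-down and 50.9 CPM in input (2.18 ± 0.21). Rarg fell in the pull-down of GAS, with 0.8, 1.72 and 4.74 CPM in the pull-down, against 7.21, 13.6 and 26.3 CPM in input (-2.61 ± 0.41), on a mean of 11 counts a library; it is named after its values were seen.

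Cofactors and target genes were set beside the receptors. In the liver mRNA pull-down 12 of 14 coactivators tested and 6 of 10 corepressors were higher and 0 lower, where 36.3% of all genes were higher, with median log2 fold changes of 1.21 and 0.63. In kidney the counts were 13 of 15 and 5 of 10, again with 0 lower, where 26.9% of all genes were higher. In small RNA, coactivators called higher and lower were 5 and 0 of 14 in liver, 7 and 2 of 15 in VsWAT and 4 and 3 of 15 in GAS. The shares of all genes called higher in these sets were 27.1%, 21.3% and 27.9%. Nrip1, a corepressor of nuclear receptors in metabolic tissue, had 144 CPM in the kidney pull-down and 45.4 CPM in input (1.68 ± 0.23). It had 537 CPM in the VsWAT pull-down and 151 CPM in input (1.83 ± 0.15), and 177 CPM in the GAS pull-down and 75.2 CPM in input (1.25 ± 0.16). The coactivator Ncoa3 rose to 208 CPM in the kidney pull-down, against 75.4 CPM in input, whereas in GAS it had 22 CPM in the pull-down and 36.3 CPM in input (-0.73 ± 0.20). Listed glucocorticoid receptor targets were higher in the pull-down for 13 of 16 in liver mRNA, with 0 lower, and 8 of 14 in kidney, with 2 lower. In GAS 4 of 12 and in VsWAT 3 of 14 were higher and 0 lower, close to the 27.9% and 21.3% of all genes called higher there. In liver small RNA 0 of 16 were higher and 5 lower, where 28.4% of all genes were lower. Sgk1, a kinase induced by corticosteroids, had 651 CPM in the GAS pull-down and 81.5 CPM in input (3.02 ± 0.25). Targets of the estrogen-related receptors went the other way in the mRNA libraries. In the liver pull-down 7 of 10 were lower and 1 higher, where 35.3% of all genes were lower. In the kidney pull-down 8 of 10 were lower and 1 higher, where 26.3% of all genes were lower. The vitamin D receptor targets in kidney divided: the catabolic enzyme gene Cyp24a1 had 139 CPM in the pull-down and 35.3 CPM in input (1.99 ± 0.25), and S100g 82.7 CPM in the pull-down and 711 CPM in input (-3.10 ± 0.35).

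Of the NR4A genes, Nr4a1 differed in its pull-down effect between VsWAT and GAS. In the GAS small RNA pull-down Nr4a1 had 213, 166 and 199 CPM on HFD and 159, 218 and 211 CPM on LFD, against 51.5, 39.7 and 45.1 CPM on HFD and 36, 37.2 and 28.6 CPM on LFD in input (2.30 ± 0.17, adjusted p = 5.37e-10). In VsWAT the pull-down held 0.734 to 6.83 CPM, against 3.97 to 16.6 CPM in input (-1.60 ± 0.51, on a mean of 7 counts a library; lost without input HFD 3, under total-count scaling and without the libraries that stood apart). The pull-down effect in VsWAT minus that in GAS was -3.92 ± 0.43 on the log2 scale (adjusted p = 3.63e-07), and this difference passed in all alternatives run. Nr4a3 in GAS had 44.4, 77.2 and 191 CPM in the pull-down, against 10.9, 26.1 and 77.5 CPM in input (1.46 ± 0.40), with overlapping groups; its difference between the tissues did not pass (-2.23, adjusted p = 0.066). Nr4a2 averaged 2.82 CPM in the pull-down and 2.02 CPM in input of GAS and did not pass.

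**Figure D4:**
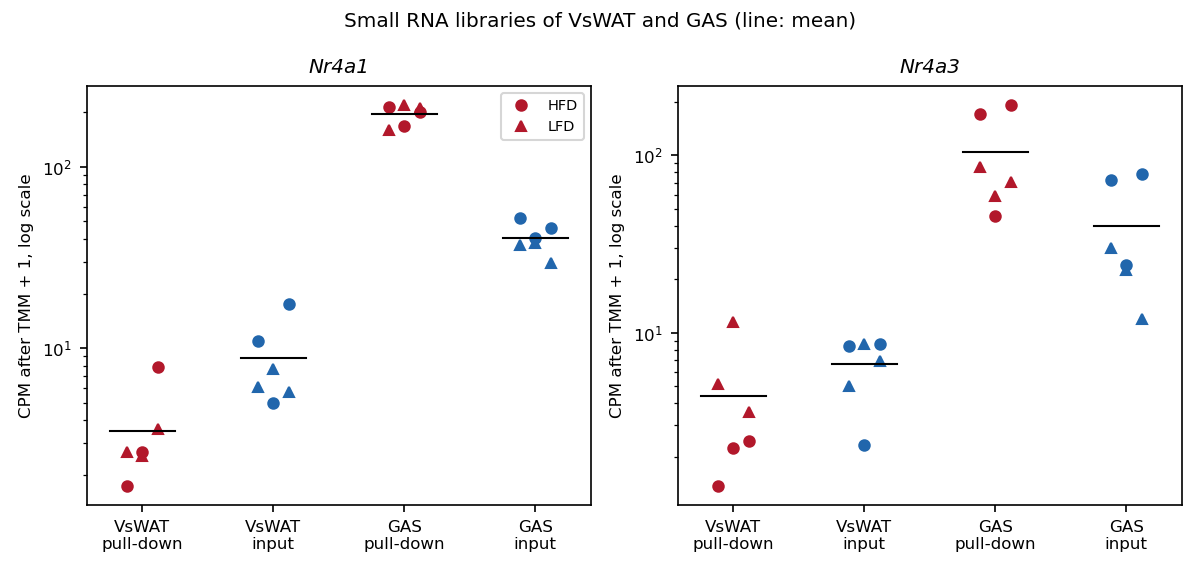
CPM after TMM plus 1 (y axes, log scale) of Nr4a1 and Nr4a3 in the small RNA libraries of VsWAT and GAS, pull-down (red) left of input (blue), HFD as circles and LFD as triangles, with a line at the mean. For Nr4a1 the GAS pull-down (159 to 218 CPM) lies above the GAS input (28.6 to 51.5 CPM), and in VsWAT the mean is lower in the pull-down.

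The promoters of the 3 NR4A genes are shown because all 3 genes were lower in VsWAT than in GAS total RNA, and because they respond to cyclic AMP and calcium signals through CREB. RefSeq windows (GRCm38.p6) were available for 30 of the 33 members; Thra, Nr3c1 and Hnf4g were not matched. The 250 bases before each start are printed on the gene's own strand, 5′ to 3′, with capitals marking each TGACG, the core of the CREB site, on either strand (CGTCA where it lies on the other strand).
Nr4a1 (chr15:101266596-101266845, + strand): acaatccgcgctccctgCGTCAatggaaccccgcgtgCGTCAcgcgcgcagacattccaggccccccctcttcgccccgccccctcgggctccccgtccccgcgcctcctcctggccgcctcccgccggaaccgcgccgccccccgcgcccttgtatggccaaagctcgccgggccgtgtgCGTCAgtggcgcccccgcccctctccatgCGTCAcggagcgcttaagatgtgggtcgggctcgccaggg
Nr4a2 (chr2:57124004-57124253, - strand): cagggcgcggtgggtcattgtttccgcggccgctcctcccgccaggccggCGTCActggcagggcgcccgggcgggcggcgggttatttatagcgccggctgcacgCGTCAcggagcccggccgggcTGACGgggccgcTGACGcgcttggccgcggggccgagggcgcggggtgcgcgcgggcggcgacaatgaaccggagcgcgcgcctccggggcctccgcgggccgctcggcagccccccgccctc
Nr4a3 (chr4:48045055-48045304, + strand): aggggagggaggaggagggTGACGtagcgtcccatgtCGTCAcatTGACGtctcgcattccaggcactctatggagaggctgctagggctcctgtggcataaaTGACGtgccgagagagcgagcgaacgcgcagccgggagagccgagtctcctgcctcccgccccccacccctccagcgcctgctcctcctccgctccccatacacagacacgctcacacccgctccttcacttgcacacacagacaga
Each window holds 4 such matches. A cut of 4 is the number these windows hold, so the shares at that cut describe them and test nothing. At least 4 matches were found in 76 of 32851 promoter windows of 300 bases (0.231%), and of the 30 members in these 3 alone. At least 1 was found in 20.8% of all windows and in 13 of the 30. The short motif was searched after the full palindrome TGACGTCA, present in 1.79% of windows, had been found in Nr6a1 alone among the members. Of the other motifs, the E-box CACGTG lies in 7.15% of all windows and 3 of the members, the receptor core site AGGTCA in 16.3% of windows and 7 of the members, and a direct repeat of AGGTCA with 1 base between in 0.04% of windows and 0 of the members, all read on both strands, with overlaps counted. Members are counted as genes and the background as windows, and some members, such as Rara and Nr6a1, have several windows. The shares are thus not like for like. The hits are matches of letters within the window and say nothing of binding.

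In how far the pull-down departed from input, members differed between tissues about as often as all genes did. Liver minus kidney, 2 were higher and 2 lower of 32 tested, where 10.7% of genes were called (3.31% higher and 7.36% lower), and VsWAT minus GAS 2 were higher and 3 lower of 29, where 12.6% were called (7.23% and 5.37%). Under total-count scaling VsWAT minus GAS gave 1 higher and 3 lower, and with size factors of the DESeq2 type liver minus kidney gave 2 higher and 1 lower. The VsWAT minus GAS count was 2 or 3 without any of VsWAT inputs HFD 1, HFD 2, HFD 3, LFD 1 and LFD 3, VsWAT pull-down HFD 3, GAS inputs HFD 1, LFD 1, LFD 2 and LFD 3, or GAS pull-downs HFD 3 and LFD 2. Nr2f6, which represses inflammatory genes in T cells, had 23.6, 18.5 and 14.7 CPM on HFD and 33.8, 28.4 and 16.5 CPM on LFD in the liver pull-down, against 29.6, 30.6 and 35.1 CPM on HFD and 35.9, 51.1 and 47.4 CPM on LFD in liver input. In kidney it had 39.7, 52 and 42.9 CPM on HFD and 48 and 38.6 CPM on LFD in the pull-down, against 21.6, 13.4 and 9.94 CPM on HFD and 7.44 and 22.1 CPM on LFD in input. The effects thus ran in opposite directions, and the difference was -2.32 ± 0.33 (adjusted p = 5.55e-05). Nr3c2 had 24.3 to 70.2 CPM in the liver pull-down, against 15.9 to 27.5 CPM in liver input, and in kidney 5.04 to 9.72 CPM in the pull-down, against 9.08 to 14.8 CPM in input, a difference of 1.68 ± 0.26 (adjusted p = 0.000143). Both differences passed in all alternatives run.

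By diet, edgeR called members in liver mRNA only, and elsewhere few genes of any kind were called. The calls that held in all alternatives were in the liver mRNA pull-down, where members were called about as often as all genes. There 24 members were tested (n = 3 each), of which 1 was higher and 3 lower on HFD, where 15.6% of genes were called (7.55% higher and 8.03% lower). Under total-count scaling 3 were higher and 2 lower. The members' median log2 fold change was -0.11 and that of all genes was 0 to 2 decimals. Nr3c2, the aldosterone receptor, had 26.9, 25.5 and 31 CPM on HFD, against 58, 60 and 72 CPM on LFD (-1.19 ± 0.15, adjusted p = 1.47e-06). Esrrg had 8.97, 7.74 and 5.69 CPM on HFD, against 20.8, 23.4 and 21 CPM on LFD (-1.52 ± 0.23, adjusted p = 2.37e-05). For both genes every HFD library lay below every LFD library, and both calls held in all alternatives run. Rara had 9.61, 9.74 and 5.41 CPM on HFD, against 15.7, 18.4 and 10.8 CPM on LFD (-0.84 ± 0.27), a call lost without HFD 2, HFD 3, LFD 1 or LFD 2. It was also lost under total-count scaling, with DESeq2 and with the dispersion estimated from all mRNA groups. Nr1i3 was the member that rose, with 21.8, 21.2 and 25.3 CPM on HFD, against 15.1, 13.8 and 12.5 CPM on LFD (0.72 ± 0.20). Its call was lost without HFD 3 or LFD 3 and with the dispersion estimated from all mRNA groups. Without HFD 3 only 2 members were called, Nr3c2 and Esrrg. Same-numbered libraries of the 2 diets deviated together in this set, and with the replicate number as a block 7 members were called, 1 higher and 6 lower, with Ppard (-0.60), Nr1i2 (-0.24) and Esrra (-0.71) added.

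In liver mRNA input 25 members were tested (n = 3 each); 0 were higher and 8 lower on HFD, where 13% of genes were called (4.96% higher and 8.09% lower), and the median was -0.51, against -0.04 for all genes. The retinoid partner Rxrb had 9.54, 8.06 and 10.5 CPM on HFD, against 21.2, 23.7 and 16.9 CPM on LFD (-1.13 ± 0.21, adjusted p = 0.0209). Nr1h2, which senses oxysterols and drives lipogenic genes, had 19.4, 22.6 and 23.6 CPM on HFD, against 35.6, 39.3 and 37.9 CPM on LFD (-0.78 ± 0.15). Nr1i2 had 62.3, 44.5 and 56.9 CPM on HFD, against 75.7, 127 and 112 CPM on LFD (-0.95 ± 0.23). The groups did not overlap in these genes. Ppard (-1.34 ± 0.30), Esrra (-1.18 ± 0.29), Esrrg (-0.98 ± 0.23), Rara (-2.14 ± 0.40) and Rxrg (-1.47 ± 0.35) fell likewise, the last 3 at a mean of at most 20 counts a library. All 8 calls were lost when any library but LFD 1 was left out, with the replicate number as a block, and with the near-identical libraries summed. Without LFD 1, the library with kidney Kap counts, 19 members were called, 2 higher and 17 lower; what remained on LFD was the near-identical pair. Nr1i3 shows the spread, with 10.1, 5.46 and 12.5 CPM on HFD and 3.34, 24.8 and 22.4 CPM on LFD. The diet effect in pull-down minus that in input, tested directly, was called by edgeR for 0 of 25 members, where 3.36% of genes were called; 7 had an unadjusted p under 0.05, as had 20.2% of all genes, and DESeq2 called 0. Without input LFD 1 the count was 7, and without pull-down LFD 1 it was 1. So the effects in pull-down and input were not shown to differ for any of them.

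**Figure D5:**
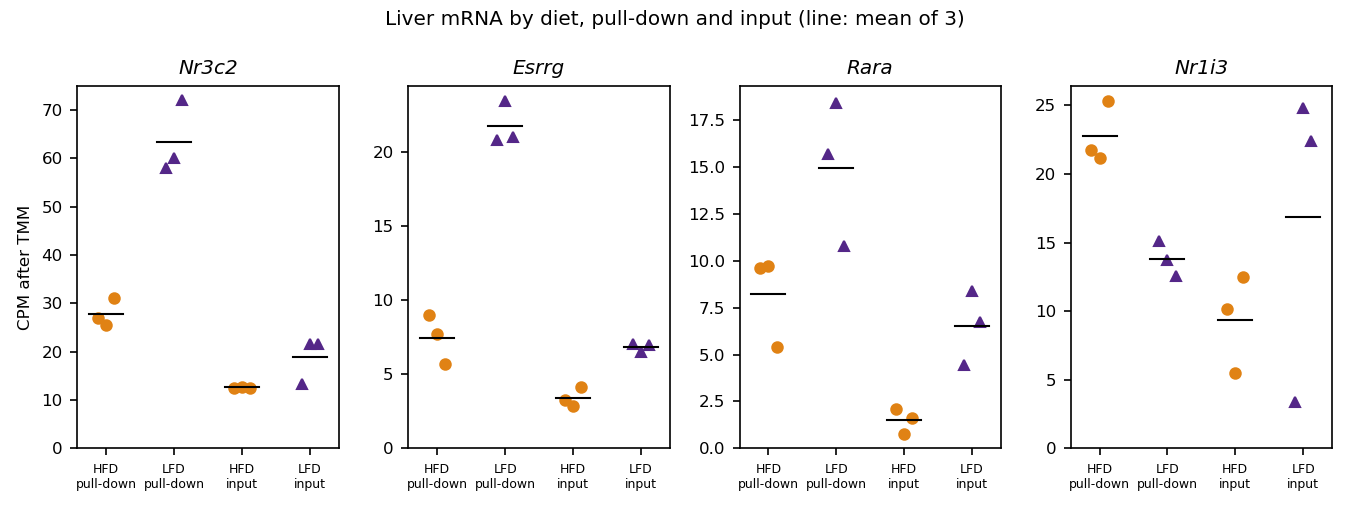
CPM after TMM (y axes, from 0) of Nr3c2, Esrrg, Rara and Nr1i3 in the liver mRNA pull-down (left pair) and input (right pair), HFD (orange circles) left of LFD (purple triangles), 3 libraries each with a line at the mean. In the pull-down Nr3c2 and Esrrg lie lower on HFD in all 3 libraries, and in input Nr1i3 on LFD is spread from 3.34 to 24.8 CPM.

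Targets and partners from some of the lists changed with diet in liver. Lists without counts below, such as the targets of Ppara and of the glucocorticoid receptor, are not described for diet. Of all genes, 8.03% were lower and 7.55% higher on HFD in the pull-down, and 8.09% lower and 4.96% higher in input. The input calls given here were all lost with the near-identical libraries summed. Single genes named below were picked from their lists by their results and do not stand for the whole list. All lipogenic and sterol targets of the liver X receptors that passed fell: 6 of 7 tested were lower on HFD in the pull-down and 5 of 9 in input, and Scd1, a fatty acid desaturase gene, had 84.9 CPM on HFD and 5720 CPM on LFD in the pull-down (-6.07 ± 0.15). Of 12 targets of Nr1i2 and Nr1i3, 4 were lower and 0 higher in the pull-down, among them Cyp2b10, the classic target of Nr1i3, with 3.5 CPM on HFD and 15.7 CPM on LFD (-2.17 ± 0.30). Nr1i3 itself was higher, by a call that some alternatives lost, as given above. The retinoic acid-clearing enzyme gene Cyp26a1, a target of the retinoic acid receptors, rose to 73 CPM on HFD, against 17.2 CPM on LFD in the pull-down (2.08 ± 0.16). In input it rose to 58.9 CPM on HFD, against 5.4 CPM on LFD (3.45 ± 0.20). Of 8 chaperones of the steroid receptors, 4 were higher and 0 lower in each fraction, including Hsp90aa1 with 173 CPM on HFD and 114 CPM on LFD in the pull-down (0.61 ± 0.16). The coactivator Ppargc1a had 27 CPM on HFD and 103 CPM on LFD in the pull-down (-1.93 ± 0.15). Of the receptors outside the 33, Nr0b2, the small heterodimer partner, had 76.6 CPM on HFD and 145 CPM on LFD in the pull-down (-0.91 ± 0.19).

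In the other 10 diet comparisons edgeR called 0 members, and so did DESeq2. The shares of all genes called by edgeR there were 0% in both kidney sets, 0.111% and 0.0545% in liver small RNA input and pull-down, 0.213% and 0.103% in VsWAT small RNA input and pull-down, 0.276% and 0.718% in GAS small RNA input and pull-down, 0.194% in VsWAT total RNA and 0.91% in GAS total RNA. Unadjusted p values under 0.05 were found for 5 of 29 members in kidney input (13.7% of all genes) and 3 of 20 in the liver small RNA pull-down (9%). They were found for 1 of 13 members in each of the liver, VsWAT and GAS small RNA inputs (9.37%, 9.39% and 7.83% of all genes) and for 1 of 23 in the GAS small RNA pull-down (9.06%). In the kidney pull-down, the VsWAT small RNA pull-down and total RNA of VsWAT and GAS 0 members had one, against 5.1%, 6.92%, 12.7% and 18.4% of all genes. Leaving out kidney input HFD 1 gave 5 calls. Leaving out kidney pull-down LFD 2 gave 2, with 1 LFD library left that is assumed to vary like the HFD libraries. In kidney input Nr4a1 had 4.2, 4.44 and 8.62 CPM on HFD, against 28.6 and 24 CPM on LFD (-2.18 ± 0.36, adjusted p = 0.351). Nr4a2 had 0.988, 0.666 and 1.09 CPM on HFD, against 3.7 and 2.72 CPM on LFD (-1.77 ± 0.36, adjusted p = 0.351). The groups do not overlap in either gene. In the kidney pull-down Nr4a1 had 3.17, 10.7 and 2.83 CPM on HFD, against 19 and 1.55 CPM on LFD, and overlapped. In GAS small RNA input Nr4a3 had 52.7, 16.8 and 56.4 CPM on HFD, against 22.3, 15.6 and 8.52 CPM on LFD (1.42 ± 0.42, adjusted p = 0.393). In VsWAT small RNA input Rora had 62.1, 54.4 and 52.7 CPM on HFD, against 74.1, 90.6 and 84.8 CPM on LFD (-0.55 ± 0.17, adjusted p = 0.267). In the liver small RNA pull-down Thrb had 60.2, 62.1 and 32.8 CPM on HFD, against 93.1 and 96 CPM on LFD (-0.80 ± 0.27, adjusted p = 0.399). In the remaining sets the smallest p values belonged to Esr1 in the kidney pull-down (0.40 ± 0.20), Nr5a2 in liver small RNA input (-0.54 ± 0.24), Rora in the VsWAT small RNA pull-down (-0.41 ± 0.21), Ppara in the GAS small RNA pull-down (0.77 ± 0.34), Ppard in VsWAT total RNA (-0.72 ± 0.32) and Rxra in GAS total RNA (0.35 ± 0.17). In GAS, adipocyte markers moved with diet, 8 of 10 being lower on HFD in total RNA and in the small RNA pull-down; their part in the receptor values was not tested.

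Plasma held receptor counts in single libraries. Of 12 members tested (4 pull-down and 4 input libraries), edgeR called 0, where 3.92% of genes were called, 2 had an unadjusted p under 0.05, as had 14.5% of all genes, and DESeq2 called 1. Under total-count scaling edgeR called 2. Nr5a2 had 24 and 0 counts on HFD and 7 and 124 counts on LFD in the pull-down, against 0 counts in each of 4 inputs (adjusted p = 0.0883), at least 19.8-fold higher with the inputs at a floor of 3 counts over the group. Hnf4a had 221 and 1 counts on HFD and 1 and 97 counts on LFD in the pull-down, against 3 and 2 counts on HFD and 0 and 2 counts on LFD in input (adjusted p = 0.295). Alb in the same pull-down libraries was at 6280 and 18.1 CPM on HFD and 346 and 1767 CPM on LFD. HFD 2, the pull-down with at most 1 count of each of these 2 receptors, had the least Alb and the fewest features detected (2863) of the 4 pull-downs. Not all members had more counts in the pull-down: Nr2f2 had 1 count over the 4 pull-downs against 38 over the 4 inputs, and Thra 2 against 18.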

How the data were processed

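The authors deposited raw counts per Ensembl gene for each library, whole numbers with no normalization. Alignment with STAR to mm10 and counting with HTSeq are named per the submitters' processing notes; versions, strand setting and multi-mapping are not given in the sources used here. Per the labels' protocols, all libraries came from a small RNA kit. Rows that name no gene were left out; in total RNA, reads with no feature were 19.6% to 32.3% and non-unique reads 11.8% to 21.3%. Symbols came from the reference gene name table.

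Counts were fitted with edgeR 4.0.16 (R 4.3.3, limma 3.58.1): TMM scaling, filterByExpr with a minimum count of 10, and the robust quasi-likelihood F-test. All p-values were adjusted by Benjamini-Hochberg over all genes tested in a comparison, and 0.05 was the threshold. Errors after ± beside log2 fold changes are SE, beside CPM they are SD. Fits held only the groups of the comparison, without the replicate number as a block, and tissue and pull-down comparisons had diet as a term (within tissue where 2 tissues' pull-down effects were compared). DESeq2 1.42.0 was an alternative. The test was also checked on simulated independent counts with a fixed dispersion. Those hold no near-identical libraries and none that stand apart, so the check does not cover these features of the data. A group at 0 was set to a floor of 3 counts over the group; intervals and floors cover counting error only.

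Members, lists and tests were chosen with earlier results of these data known. Members were described with values where they passed, had a mean of at least 20 counts and did not overlap between sides; other members that passed were named after their values were seen. Elsewhere in diet comparisons the smallest p values were named. Whether numbers pair libraries was read from the correlation of same-numbered deviations from group means, not from the labels: they pair by this rule in the liver mRNA pull-down between diets (0.163 to 0.185), in GAS small RNA between fractions (0.421 to 0.605) and in VsWAT small RNA on LFD (0.344 to 0.414). Plasma was not tested for diet. The result of 1 gene outside the members is not reported here.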

Additional observations from a re-analysis of the deposited data

Results flagged for a closer look

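In 9 results the pull-down effect of a receptor differed between tissues (Nr2f6 in both pairs of tissues), each tested by an interaction term in edgeR over all genes. The values are differences of log2 fold changes, and no explanation is weighed. In liver minus kidney mRNA, Nr2f6 differed by -2.32 and Nr3c2 by 1.68, and both passed in all alternatives run. Esrrb differed by 1.75, from 18 counts in the 6 liver inputs, and lost its call without any of 6 of 22 libraries. Nr2f2 differed by -0.86 and lost its call without any of 9 of 22. In VsWAT minus GAS small RNA, Nr4a1 differed by -3.92 and passed in all alternatives run. Esrrg differed by -2.38, Esr1 by -0.87 and Rarg by 1.47, and these lost their calls without any of 10, 14 and 18 of 24 libraries. Nr2f6 differed by 2.99 on a mean of 5 counts a library.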

How the results depend on the processing

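Of 165 calls over 26 comparisons, 106 passed in the same direction in all alternatives run. DESeq2 lost 9 of 164, size factors of the DESeq2 type 6, no filter 18, the replicate block 20, near-identical libraries summed 15 of 81, dispersion from all groups 5 of 12, the crossed kidney numbers 4 of 21 and leaving out the libraries that stood apart 20 of 94; leaving out single libraries lost 40 at least once. Total-count scaling lost 20 and turned 13; it moved the median of all genes by 1.23 in the liver small RNA pull-down, 2.18 in plasma and 0.93 in VsWAT over GAS small RNA, so small RNA values hold relative to TMM. Under it log2 fold changes turned to 0.77 (Rxra), 0.21 (Nr1h2) and 0.77 (Nr2f2) in liver small RNA pull-down over input, 0.42 (Rxra), 0.78 (Nr2c2) and 0.23 (Thra) in GAS pull-down over input, -0.021 (Nr3c1) in liver over kidney, 0.16 (Rxra), 0.053 (Rxrb), 0.16 (Nr2c1), 0.17 (Nr2c2), 0.20 (Esr1), 0.52 (Thra) and 0.12 (Thrb) in VsWAT over GAS total RNA, -0.85 (Nr2c2), -0.71 (Nr2f2), -0.77 (Nr3c1) and -0.19 (Esr1) in liver over VsWAT, and 0.23 (Ppard), 0.11 (Rarg), 0.78 (Nr1h2), 0.74 (Nr3c1), 0.58 (Thra) and 0.76 (Thrb) in VsWAT over GAS small RNA. In kidney input Hnf4a on HFD over LFD turned to -0.29 without the libraries that stood apart, against 1 LFD library. Counts of called members moved under total-count scaling to 17 in the liver small RNA pull-down, 2 in plasma and 10 in VsWAT over GAS small RNA; with no filter, where more genes were tested, to 15 in the liver small RNA pull-down, 6 in kidney input, 1 in GAS small RNA input and 1 in its pull-down (diet), and 10 in VsWAT over GAS small RNA; with DESeq2 to 1 in plasma. Without the libraries that stood apart, with fewer samples (1 LFD library in kidney input and in VsWAT total RNA, assumed to vary like the HFD ones), counts were 4 in the VsWAT pull-down, 19 in kidney input and 3 in VsWAT total RNA by diet, 3 in VsWAT over GAS small RNA and 1 in VsWAT minus GAS. With near-identical libraries summed they were 0 for diet in liver mRNA input and 3 in VsWAT minus GAS, and with dispersion from all groups 5 and 2 for diet in liver mRNA input and pull-down. With the replicate number as a block they were 0 and 7 for diet in liver mRNA input and pull-down and 2 in liver minus kidney; the crossed kidney LFD numbers, chosen after seeing the data, gave 14 in the kidney pull-down and 3 in liver minus kidney. The cause of the other moves was not tested. Leaving out 1 library, the diet calls numbered 0 to 19 (liver mRNA input), 2 to 6 (liver mRNA pull-down), 0 to 5 (kidney input) and 0 to 2 (kidney pull-down), with 5 to 9 in VsWAT over GAS small RNA, 2 to 5 in VsWAT minus GAS, and 0 to 7 for the diet effect in pull-down minus input. Small RNA inputs left 15 to 20 members untested for low counts.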

Other observations

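Vdr was not called in GAS, and its counts were uneven between libraries. The small RNA pull-down held 21 counts over the LFD libraries and 1 over the HFD libraries. LFD 3 held 18 counts in the small RNA pull-down and 35 in the small RNA input, and 60 in total RNA. HFD 1 held 0 counts in the small RNA pull-down, 13 in the small RNA input and 18 in total RNA. These are raw counts from libraries of unlike depth, and the labels do not pair numbers across kinds of library.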
